A study of Mus musculus with 36 samples.

Results

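Mitochondrial chaperones and proteases were followed as a set of 10 genes in mouse brain: Hspd1, Hspe1, Hspa9, Trap1, Lonp1, Clpp, Clpx, Yme1l1, Oma1 and Dele1. They were taken by symbol from the count table of 56184 genes, all 10 were found there, and all 10 passed the low-count filter that left 16255 genes for testing. The animals were Gpt2 wild-type (WT) or Gpt2 knockout (KO) mice that received vehicle (Veh) or dimethyl alpha-ketoglutarate (dm-αKG) intraperitoneally at 600 mg per kg, and brain was taken at postnatal day 19. Gpt2 encodes the mitochondrial alanine transaminase, which makes alanine and alpha-ketoglutarate from pyruvate and glutamate, and dm-αKG is a membrane-permeable ester of alpha-ketoglutarate. RNA from 10 mg of brain per sample was read from the poly-A end with oligo-dT priming in 36 libraries: 10 WT-Veh, 8 WT-dm-αKG, 10 KO-Veh and 8 KO-dm-αKG. The series text calls the libraries of a group biological replicates, and the labels name neither the knockout allele, the brain region of each piece, the sex nor the number of injections. Where libraries of a group do not come from separate animals, the p-values measure only the spread between these samples.

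Nearly all mitochondrial proteins are made in the cytosol and threaded unfolded through the inner membrane. In the matrix the Hsp70 chaperone (Hspa9) pulls them in, the Hsp60 and Hsp10 chaperonin chamber (Hspd1 and Hspe1) folds them, and the Hsp90 paralog Trap1 adds a further step, while the ATP-driven proteases Lonp1 and ClpXP (Clpx, the unfoldase, with Clpp, the peptidase) remove what fails. On the inner membrane Yme1l1 and Oma1 cut the fusion factor Opa1, and stress-activated Oma1 also cuts Dele1, which then turns on the kinase Hri (Eif2ak1) and with it the integrated stress response, the translational programme led by Atf4. Raised transcripts of these chaperones and proteases are the usual readout of the mitochondrial unfolded protein response, in which Atf5 is a known regulator in mammals.

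Library totals ran from 5768225 to 13267397 counts. Levels below are CPM, counts scaled to a common library size, after scaling by trimmed mean of M-values (TMM), and fold changes are log2 values with their standard error (SE) from edgeR's quasi-likelihood test over all libraries, adjusted over the 16255 genes and called under 0.05. Gpt2 averaged 30.2 CPM ± 5.61 (SD, n = 10) in WT-Veh and 2.04 CPM ± 0.837 (SD, n = 10) in KO-Veh, and its range in each knockout group lay below both wild-type groups. Neuronal markers were present in every library, with a summed level of at least 1832 CPM over 8 genes. The pieces differed in region: in 9 libraries (WT-Veh 1, 6 and 9, WT-dm-αKG 3, 6, 7 and 8, KO-Veh 7 and KO-dm-αKG 7) the mean log2 level of 14 cerebellum markers stood more than 1 above the mean of all libraries. These cerebellum-high libraries are 7 of 18 wild-type and 2 of 18 knockout libraries, so genotype and region partly move together. All 14 cerebellum markers were lower in knockouts over both treatments, with a median log2 change of -1.41 and none called, while 10 of 10 striatum markers (median 0.77, 1 called) and 8 of 9 hypothalamus markers (2.17, 4 called) were higher; the results below are given with the cerebellum-high libraries left out where that moves them. The summed level of the cerebellum markers ran from 173 to 4642 CPM in WT-Veh, from 84.4 to 4197 CPM in WT-dm-αKG, from 72.2 to 5235 CPM in KO-Veh and from 72.9 to 1586 CPM in KO-dm-αKG, and none of the 14 was at 0 in any library. In bulk tissue, fewer cells of a type and less RNA per cell cannot be told apart.

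Over both treatments 3 of the 10 genes were called higher in knockouts than in wild types. Hspa9 rose most, by 0.47 (SE 0.08, adjusted p = 5.25e-05, edgeR), Hspe1 rose by 0.26 (SE 0.08, adjusted p = 0.038) and Clpp by 0.17 (SE 0.05, adjusted p = 0.0139). None of the 10 fell. Of all genes tested, 11.9% were called in this comparison and 5.7% were called higher. The median over the 10 genes was 0.06 against -0.02 over all genes tested. edgeR on counts called 927 genes higher and 1003 lower (932 and 997 with DESeq2 size factors), whereas limma on the deposited CPM values, which differs in table, transform and tool, called 865 and 104, with 3 of the 10 genes higher in each. With the 9 cerebellum-high libraries left out 3 of the 10 were again called higher, Hspa9, Hspe1 and, in place of Clpp, Clpx. Within a single treatment only Hspa9 was called, both with vehicle, where 4.31% of all genes were called, and with dm-αKG, where 1.87% were called. These comparisons share their libraries with the pooled one.

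**Figure D1:**
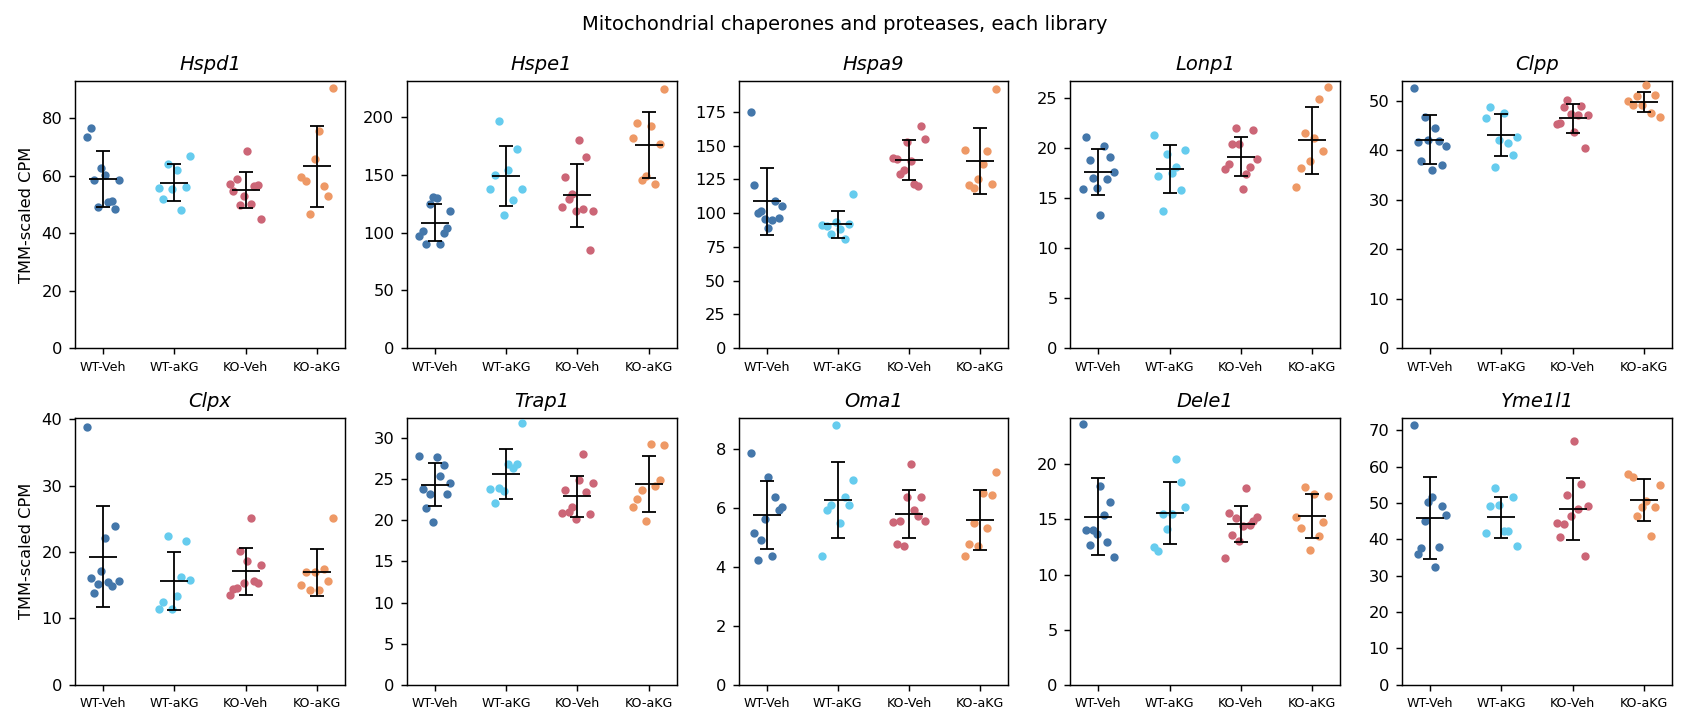
TMM-scaled CPM of each of the 10 genes (vertical axes, each starting at 0) in every library, by group (horizontal axis); each point is 1 library, the long bar is the group mean and the whiskers are 1 SD. For Hspa9 the 8 KO-dm-αKG points all sit above the 8 WT-dm-αKG points, and 1 WT-Veh library, at 175 CPM, stands above all KO-Veh libraries.

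Hspa9, on chromosome 18, encodes mortalin, the matrix Hsp70 that drives import and first folding. With vehicle its level was 88.7 CPM in the lowest, 101 CPM in the median and 175 CPM in the highest wild-type library, and 120, 139 and 165 CPM in the knockouts. The ranges overlapped through 1 wild-type library: WT-Veh 1, a cerebellum-high library, reached 175 CPM while the next reached 121 CPM, and 9 of 10 knockout libraries lay above that second value. WT-Veh 6, also cerebellum-high, held the lowest wild-type value. The log2 change was 0.36 (SE 0.10, 95% interval 0.15 to 0.56, edgeR adjusted p = 0.0332). With dm-αKG the level was 80.9, 90.7 and 114 CPM (lowest, median, highest) in wild types and 118, 131 and 192 CPM in knockouts. Here the groups did not overlap after TMM scaling, which held for 0.412% of all genes tested in the same direction. The gap depended on that scaling. WT-dm-αKG 8 had 1575 Hspa9 counts in a library total of 12296565. KO-dm-αKG 3 had 1249 in 10917762, a smaller share before scaling. The change with dm-αKG was 0.59 (SE 0.11, 95% interval 0.36 to 0.82, edgeR adjusted p = 0.00247).

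The difference between the Hspa9 changes with dm-αKG and with vehicle was 0.23 (95% interval -0.07 to 0.54, adjusted p = 0.961, edgeR), so the effects were not shown to differ. edgeR called no gene in that interaction, 729 genes (4.48%) and none of the 10 had an unadjusted p under 0.05, and DESeq2 called 0. Without the 9 cerebellum-high libraries the Hspa9 changes were 0.45 with vehicle, 0.65 with dm-αKG and 0.55 over both, all called. Marker scores of cerebellum, cerebral cortex, striatum, hypothalamus and oligodendrocytes, called region scores here, were also used as 5 covariates. With them the changes were 0.41, 0.56 and 0.48, also all called. The call with vehicle was lost when any of WT-Veh 5, 6, 7 and 9 or KO-Veh 5 and 10 was left out (change 0.33 to 0.34, adjusted p between 0.0508 and 0.0726, edgeR), in limma on the deposited CPM values (0.37, adjusted p = 0.336), without the low-count filter (adjusted p = 0.108) and with only the groups compared in the fit (adjusted p = 0.0876).

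**Figure D2:**
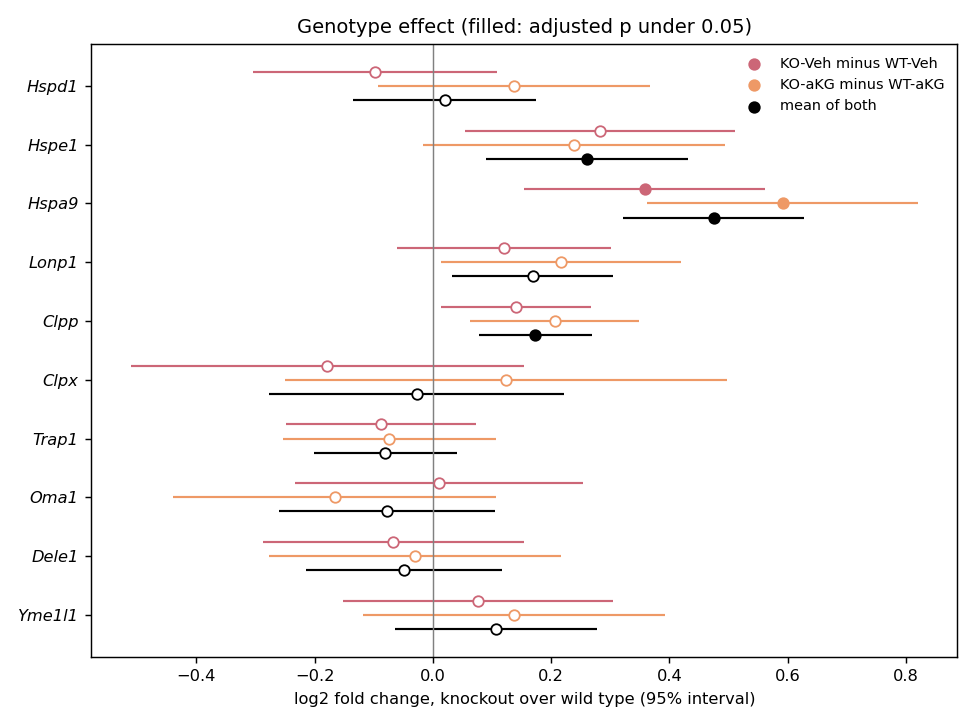
Log2 fold change of knockout over wild type (horizontal axis) for each of the 10 genes with vehicle, with dm-αKG and as the mean of both; lines are 95% intervals and filled points have an edgeR adjusted p under 0.05. Hspa9 has filled points in all 3 rows (0.36, 0.59 and 0.47), whereas Hspe1 and Clpp are filled only for the mean (0.26 and 0.17).

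Hspd1 and Hspe1 encode the chaperonin barrel and its lid. They lie head to head on chromosome 1: in GENCODE M21 (GRCm38) Hspd1 spans chr1:55077835-55088243 on the minus strand and Hspe1 spans chr1:55088132-55091307 on the plus strand, so that their first exons overlap. The following stretches come from the RefSeq promoter windows (GRCm38.p6, 250 bases before to 50 after each start), which hold 2 starts of Hspd1. The heat shock stretch lies between the Hspe1 start and the downstream Hspd1 start, which is inside Hspd1 as counted from its upstream start. The NRF1 stretch lies just before the upstream Hspd1 start. Capitals mark matches to the heat shock element, searched as GAA, TTC and GAA in a row with 2 bases between neighbours, and to the site of the nuclear respiratory factor NRF1, searched as GCGCA and GCGC with 1 base between them.
Hspe1, chr1:55088053-55088082, plus strand, heat shock element: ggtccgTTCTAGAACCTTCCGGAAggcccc
Hspd1, the same bases read on the minus strand: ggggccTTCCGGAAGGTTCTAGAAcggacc
Hspd1, chr1:55088283-55088312, minus strand, NRF1 site: gccgcgcagcGCGCAGGCGCactcagcccc
The heat shock stretch holds overlapping matches on both strands, and its capitals begin 89 bases before the Hspe1 start. It lies in the window of the downstream of the 2 RefSeq starts of Hspd1, a window that shares 285 bases with that of Hspe1. Both strands of every window were searched. A heat shock element was found in 0.603% of the 32851 mouse promoter windows and an NRF1 site in 4.6%, and a match describes letters only.

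Of this pair Hspe1 was called with genotype and Hspd1 was not. Hspe1 with vehicle was 90.1, 103 and 131 CPM (lowest, median, highest) in wild types and 84.9, 126 and 180 CPM in knockouts, and with dm-αKG 115, 144 and 197 CPM against 142, 179 and 224 CPM. The groups overlapped in both treatments, and 9 of 10 and 7 of 8 knockout libraries lay above the wild-type median. Hspe1 changed by 0.28 with vehicle (SE 0.11; adjusted p = 0.142) and by 0.24 in the treated animals (SE 0.13; adjusted p = 0.352), and it passed only over both treatments (edgeR). That call was lost with the region scores as covariates (0.25, adjusted p = 0.058), without the low-count filter (adjusted p = 0.0751), with replicate number as a block (adjusted p = 0.0665) and on leaving out any of 14 libraries (WT-Veh 1 and 9, WT-dm-αKG 1, 4, 6 and 8, KO-Veh 2, 4, 6 and 8, KO-dm-αKG 1, 2, 5 and 8; change 0.23 to 0.26, adjusted p between 0.0509 and 0.07, edgeR).

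Hspd1 ran from 48.3 to 76.6 CPM in WT-Veh (median 58.5), from 47.9 to 67.1 CPM in WT-dm-αKG (55.9), from 45.0 to 68.8 CPM in KO-Veh (55.5) and from 46.6 to 90.7 CPM in KO-dm-αKG (59.0). The groups overlapped throughout, and only 2 of 10 KO-Veh libraries exceeded the WT-Veh median. Its change was -0.10 with vehicle, 0.14 with dm-αKG and 0.02 over both (95% interval -0.13 to 0.17, adjusted p = 0.896, edgeR). The last 2 values turned to -0.02 and -0.04 with the region scores as covariates, and the pooled value to -0.03 without KO-dm-αKG 8, the library at 90.7 CPM.

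Counts of this pair carry an uncertainty of their own, since some of their reads were shared with other features. Fractional values behind the rounded counts, within a tolerance of 0.02, showed reads shared between features in 32 of 36 libraries for Hspd1, 31 for Hspe1, 22 for Hspa9 and 19 for Trap1, against 0 to 2 for the other 6 genes.

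Taken within a library, the ratio of Hspe1 to Hspd1 counts needs no scaling between libraries; its absolute size depends on how each transcript was counted, so only differences are read. The log2 ratio averaged 0.89 ± 0.31 (SD, n = 10) in WT-Veh, 1.36 ± 0.23 (n = 8) in WT-dm-αKG, 1.24 ± 0.28 (n = 10) in KO-Veh and 1.49 ± 0.22 (n = 8) in KO-dm-αKG. Of the knockout libraries, 5 of 10 with vehicle lay above every WT-Veh library. The genotype difference was 0.36 with vehicle (two-sided permutation p = 0.0158, adjusted over 8 ratio tests 0.063) and 0.12 with dm-αKG (exact permutation p = 0.286, adjusted 0.381). The treatment difference was 0.48 in wild types (exact permutation p = 0.00242, adjusted 0.0194) and 0.24 in knockouts (exact permutation p = 0.05, adjusted 0.133). Without the cerebellum-high libraries the wild-type difference was 0.41 (adjusted p = 0.0848, exact permutation). Both ratios examined here and below were chosen after the levels had been seen.

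**Figure D3:**
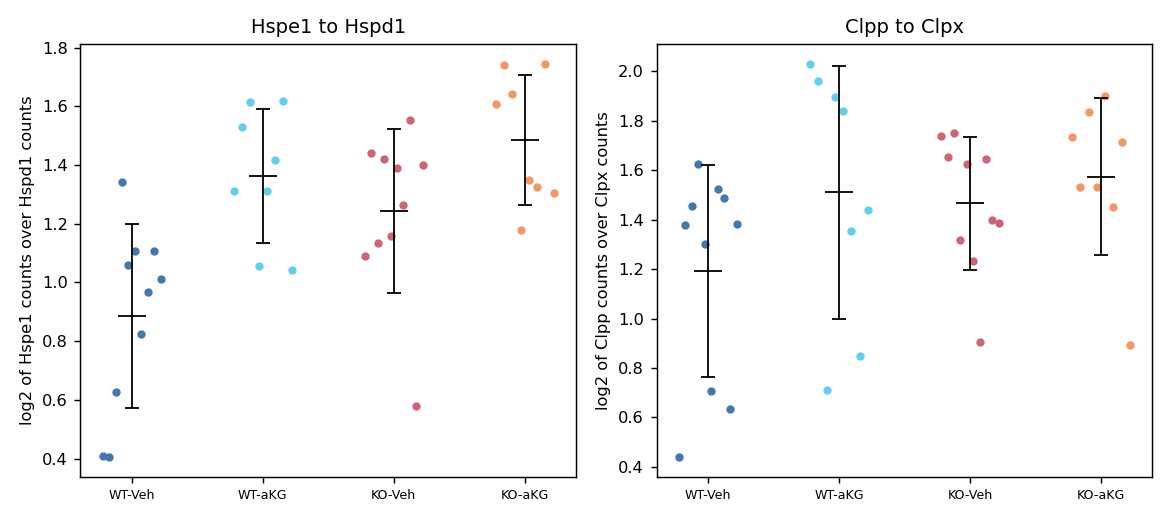
Log2 of the Hspe1 to Hspd1 count ratio (left) and of the Clpp to Clpx count ratio (right) in every library by group; points are libraries, the long bar is the mean and the whiskers are 1 SD, and the vertical axes do not start at 0. The Hspe1 to Hspd1 ratio is lowest in WT-Veh (mean 0.89), where 3 libraries lie below 0.7, and the Clpp to Clpx ratio spreads widely within each group.

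Among the matrix proteases Clpp rose and its partner Clpx was not called. Clpp lies at chr17:56990305-56996188 (plus strand) and Clpx at chr9:65294260-65330658 (plus strand) in GENCODE M21. Clpp with vehicle was 36.1, 41.8 and 52.6 CPM (lowest, median, highest) in wild types and 40.5, 47.1 and 50.2 CPM in knockouts, and with dm-αKG 36.7, 42.5 and 48.8 CPM against 46.8, 49.6 and 53.2 CPM. With dm-αKG 6 of 8 knockout libraries exceeded every wild-type library; with vehicle none did, since WT-Veh 1 was highest. Clpp changed by 0.14 with vehicle (SE 0.06; adjusted p = 0.19) and by 0.21 in the treated animals (SE 0.07; adjusted p = 0.127), and only the value over both, 0.17, passed (edgeR). The pooled call held on leaving out each of the 36 libraries in turn (0.16 to 0.19, adjusted p at most 0.027, edgeR). It was lost without the low-count filter (adjusted p = 0.0815) and without the 9 cerebellum-high libraries (0.12, adjusted p = 0.0963).

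Clpx was highest in a cerebellum-high library in 3 of the 4 groups. The highest value was 38.8 CPM in WT-Veh 1, and the next highest in that group were 23.9 CPM in WT-Veh 9 and 22.1 CPM in WT-Veh 6, all cerebellum-high, whereas the next library in that group, WT-Veh 5, had 17.1 CPM. In WT-dm-αKG the highest value was 22.4 CPM in library 3, in KO-Veh 25.2 CPM in library 7, both cerebellum-high, and in KO-dm-αKG 25.2 CPM in library 8, which is not. Group medians were 15.8 and 14.5 CPM in the wild types (vehicle, then dm-αKG) and 15.5 and 16.3 CPM in the knockouts. Over all libraries the Clpx genotype change was -0.18 under vehicle (SE 0.16; adjusted p = 0.552), 0.12 in the treated animals (SE 0.18; adjusted p = 0.8) and -0.03 (SE 0.12, adjusted p = 0.912) over both (edgeR). Without the 9 cerebellum-high libraries the same changes were 0.07, 0.52 and 0.29, and the last 2 were called (adjusted p = 0.0304 and 0.0233, edgeR). That fit compares 4 wild-type with 7 knockout libraries under dm-αKG. With region scores as covariates, Clpx was 0.12 with vehicle and 0.20 over both (adjusted p = 0.461 and 0.0746), and leaving out WT-Veh 1, WT-dm-αKG 3 or WT-dm-αKG 7 alone also turned the pooled value positive (0.06, 0.02 and 0.01).

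The log2 Clpp to Clpx ratio averaged 1.19 ± 0.43 (SD, n = 10) in WT-Veh, 1.51 ± 0.51 (n = 8) in WT-dm-αKG, 1.47 ± 0.27 (n = 10) in KO-Veh and 1.57 ± 0.32 (n = 8) in KO-dm-αKG. The lowest libraries were WT-Veh 1, WT-dm-αKG 3, KO-Veh 7 and KO-dm-αKG 8. Its genotype difference was 0.27 with vehicle (permutation p = 0.105, adjusted 0.21) and 0.06 with dm-αKG (exact permutation p = 0.774), and the latter was -0.38 without the cerebellum-high libraries (adjusted p = 0.0848, exact permutation).

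Lonp1 (chr17:56614297-56626887, minus strand), the main matrix protease for oxidised and misassembled proteins, did not pass. With vehicle it was 13.4, 17.3 and 21.1 CPM (lowest, median, highest) in wild types and 15.9, 18.7 and 21.999 CPM in knockouts; with dm-αKG it was 13.7, 17.8 and 21.3 CPM against 16.2, 20.4 and 26.1 CPM. Knockout libraries lay above the wild-type median in 9 of 10 and 7 of 8 cases, with overlapping ranges. The change was 0.12 (SE 0.09, adjusted p = 0.451), 0.22 (SE 0.10, adjusted p = 0.286) and, over both treatments, 0.17 (SE 0.07, 95% interval 0.03 to 0.30, adjusted p = 0.0931, edgeR). The pooled value was 0.11 with the region scores as covariates.

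The remaining 4 genes showed no called genotype change in any comparison. Trap1, the matrix Hsp90 (chr16:4039971-4077827, minus strand), had group medians of 24.2 CPM (vehicle) and 25.2 CPM (dm-αKG) in wild types and of 22.6 and 23.9 CPM in knockouts within an overall range of 19.8 to 31.9 CPM, and its pooled genotype change was -0.08 (95% interval -0.20 to 0.04, adjusted p = 0.39, edgeR). The Trap1 change with dm-αKG was -0.07, and 0.03 without the cerebellum-high libraries. Yme1l1 (chr2:23156369-23199260, plus strand), the inner membrane protease that faces the intermembrane space, had medians of 45.8, 45.7, 47.4 and 49.7 CPM in the same order. WT-Veh 1 held the highest Yme1l1 value, 71.5 CPM, with the next in that group at 51.7 CPM. Its pooled change was 0.11 (95% interval -0.06 to 0.28, adjusted p = 0.422, edgeR).

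The 2 genes of the relay from mitochondria to the integrated stress response were also not called. Oma1 (chr4:103313812-103371868, plus strand) had medians of 5.77 and 6.09 CPM in the wild types (vehicle, then dm-αKG) and 5.63 and 5.40 CPM in the knockouts, on 38 to 106 counts per library, the lowest counts of the set. Its changes were 0.01 with vehicle, -0.17 with dm-αKG and -0.08 over both (95% interval -0.26 to 0.11, adjusted p = 0.609, edgeR), and the vehicle value took the other sign on leaving out any of 7 libraries. Dele1, on chromosome 18, had medians of 14.03, 15.5, 14.7 and 15.02 CPM in the same order and changes of -0.07, -0.03 and -0.05 (95% interval of the last -0.21 to 0.12, adjusted p = 0.74, edgeR). Without the cerebellum-high libraries the Dele1 values were 0.08, 0.19 and 0.14, none called. Eif2ak1, the kinase downstream of Dele1, averaged 10.98 CPM ± 2.203 (SD, n = 10) in WT-Veh and 11.1 CPM ± 2.65 (SD, n = 10) in KO-Veh, with a pooled change of -0.05 (adjusted p = 0.748, edgeR). Transcript levels do not measure cleavage of Dele1 or activity of the kinase.

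With dm-αKG, Hspe1 was higher in both genotypes and was called when they were averaged. In wild types Hspe1 moved from 90.1, 103 and 131 CPM with vehicle to 115, 144 and 197 CPM, and 6 of 8 treated libraries exceeded every vehicle library. In knockouts it moved from 84.9, 126 and 180 CPM to 142, 179 and 224 CPM, and 4 of 8 exceeded every vehicle library. The changes were 0.46 (SE 0.12) in wild types and 0.41 (SE 0.12) in knockouts, neither called (adjusted p = 0.193 and 0.214, edgeR). With region scores as covariates Hspe1 changed by 0.45 in wild types, which was called (adjusted p = 0.0483), and by 0.35 in knockouts, which was not (adjusted p = 0.782); without the cerebellum-high libraries the values were 0.36 and 0.40, neither called (adjusted p = 0.716 and 0.105, edgeR). In neither genotype did edgeR call any gene, with 1389 (8.55%) and 1973 (12.1%) genes at an unadjusted p under 0.05, among them 2 and 1 of the set; DESeq2 called 90 and 20 genes, Hspe1 among them (adjusted p = 0.0237 and 0.0499).

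Averaged over genotypes, a comparison added after the data had been seen, the Hspe1 change was 0.43 (SE 0.08, 95% interval 0.26 to 0.60, adjusted p = 0.0192, edgeR), and 0.308% of all genes were called. Hspd1 changed by 0.08 (adjusted p = 0.639), Hspa9 by -0.13 (adjusted p = 0.44) and Clpx by -0.16 (adjusted p = 0.57) in that comparison (edgeR). The Hspe1 call was lost without KO-dm-αKG 8 (0.40, adjusted p = 0.0546), with replicate number as a block (0.40, adjusted p = 0.0761), without the low-count filter (0.44, adjusted p = 0.13) and without the 9 cerebellum-high libraries (0.38, adjusted p = 0.279), all in edgeR. Markers of cells and regions moved alongside: 10 of 10 oligodendrocyte markers (median 0.51) and 5 of 5 blood markers (0.37) were higher with dm-αKG. All 7 cortex markers (-0.46) and all 14 cerebellum markers (-0.34) were lower. None of these markers was called. Summed oligodendrocyte markers ran from 4181 to 39132 CPM in WT-Veh, from 4332 to 35354 CPM in WT-dm-αKG, from 4821 to 17738 CPM in KO-Veh and from 8504 to 28538 CPM in KO-dm-αKG. Their part in the Hspe1 change was not tested on its own. With the region scores as covariates, which include the oligodendrocyte score, the Hspe1 change was 0.40 (adjusted p = 0.0387, edgeR).

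Around the group means, the 10 genes did not vary as 1 block. Over the 36 libraries, log2 levels with group means removed gave 45 pairs. Lonp1 and Yme1l1 ran opposite to each other (Pearson r = -0.59, permutation p = 3e-04, adjusted over the pairs 0.0045; Spearman rho = -0.63, permutation p = 2e-04), and r was -0.56 without the 2 libraries farthest from the median of Lonp1 and -0.57 in the 27 libraries not high in cerebellum markers. Hspe1 and Yme1l1 rose and fell together (r = 0.58, permutation p = 2e-04, adjusted 0.0045; rho = 0.61, permutation p = 1e-04, the smallest the draws can give; r = 0.45 without the 2 farthest, 0.75 in the 27). Trap1 followed Dele1 (r = 0.60, permutation p = 4e-04, adjusted 0.0045; rho = 0.65, permutation p = 1e-04; r = 0.60 without the 2 farthest, 0.55 in the 27). The pair with the highest r, Clpx with Dele1, had r = 0.70 (permutation p = 1e-04, adjusted 0.0045; rho = 0.62, permutation p = 2e-04; 0.57 without the 2 farthest) but 0.20 in the 27 libraries. The partners Hspd1 and Hspe1 reached r = 0.36 (permutation p = 0.0295, adjusted 0.116).

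Among all genes tested, those most like each member in the same residual levels were Jak1 (r = 0.79) and Vdac1 (0.76) for Hspa9, Gfpt1 (0.85) and Kif21a (0.81) for Hspd1, Rpl22l1 (0.91) for Hspe1, and Eif3k (0.72) and Borcs8 (0.70) for Clpp. For Clpx they were Lypla1 (0.91) and Mtfr1 (0.91), for Yme1l1 Dcun1d5 (0.93) and Ube2d3 (0.91), and for Lonp1 Rab11fip5 (0.77) and Plec (0.75). Trap1 was nearest to Gfm1 (0.76) and Vwa7 (0.70), Oma1 to Ddx19b (0.68) and Dnajc10 (0.66), and Dele1 to Polr1c (0.78) and Tmem62 (0.77). These values describe the 36 libraries, which differ in region and depth, and were not tested.

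Genes that work beside the set were described from lists, by their genotype change over both treatments. The counts are read against the 11.9% of all genes called in that comparison, and the 5.7% called higher. Of 11 co-chaperones, 3 rose and none fell (median 0.16 against -0.02 over all genes). Hscb, which works with Hspa9 in the transfer of iron-sulfur clusters, rose by 0.48 (adjusted p = 0.00285, edgeR). Grpel1, the nucleotide exchange factor of Hspa9, rose by 0.30 (adjusted p = 0.00332, edgeR). Pam16, a part of the import motor around Hspa9, rose by 0.24 (adjusted p = 0.00533, edgeR). These 3 were also called with vehicle, and none of the 11 was called with dm-αKG. The median change of the 11 was 0.22 with vehicle and 0.18 with dm-αKG, and none was called in the interaction. The 2 effects were thus not shown to differ. Of all genes tested, 4.31% were called with vehicle and 1.87% with dm-αKG. Grpel1 averaged 35.6 CPM ± 4.01 (SD, n = 10) in WT-Veh and 45.0 CPM ± 7.38 (SD, n = 10) in KO-Veh. Hscb, Grpel1 and Pam16 were also called in limma on the deposited CPM values and without the cerebellum-high libraries. Of 25 protein import genes, 3 rose and none fell (median 0.12): Timm10, a small chaperone of the intermembrane space, by 0.47 (adjusted p = 3.6e-05), Tomm22, a receptor of the outer membrane gate, by 0.16 (adjusted p = 0.017), and Timm10b by 0.19 (adjusted p = 0.048), all in edgeR. Without the cerebellum-high libraries Tomm22 (adjusted p = 0.0627) and Timm10b (adjusted p = 0.0633) were not called, and in limma Tomm22 was not (adjusted p = 0.0766). In the fit without those libraries 4 import genes rose and 1 fell: beside Timm10 these were Timm23, Timm29 and Timm50, and the lower one was Mtx1 (-0.26, adjusted p = 0.0146, edgeR), all 4 named after their values were seen.

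The calls among other proteases depended on how region was treated. In the edgeR fit of all libraries without covariates, list counts are again read against the 11.9% of all genes called. Of 14 further proteases and peptidases none rose and 2 fell (median -0.01): Spg7, the paraplegin subunit of the matrix-side m-AAA protease, by 0.32 on the log2 scale (log2 change -0.32, adjusted p = 0.0092) and Lactb (-0.29, adjusted p = 0.00742). With region scores as covariates 3 rose and 2 fell, and with the cerebellum-high libraries left out 2 rose and 1 fell; Immp2l (0.46 and 0.45) and Pmpcb (0.20 and 0.22), named after their values were seen, rose in both of those fits. Of 8 scaffold and fusion genes 2 fell (median -0.16), the prohibitin Phb2 (-0.17, adjusted p = 0.021) and the cristae protein Chchd3 (-0.25, adjusted p = 0.0235). Of 13 genes for mitochondrial content and biogenesis 2 rose and 4 fell (median -0.15), against 3 and 3 with region scores as covariates, 3 and 1 without the cerebellum-high libraries (median -0.03) and 1 and 0 in limma on the deposited CPM values. Among those with the lowest adjusted p, Tfb2m, a transcription factor of mitochondrial DNA, rose by 0.24 (adjusted p = 0.00952), while the coactivators Ppargc1b (-0.68, adjusted p = 0.00875) and Ppargc1a (-0.24, adjusted p = 0.0208) and cytochrome c, Cycs (-0.24, adjusted p = 0.0132), fell, all in edgeR. In limma on the deposited CPM values none of these lower genes was called (adjusted p = 0.159 for Spg7, 0.355 for Lactb, 0.69 for Phb2, 0.473 for Chchd3, 0.168 for Ppargc1b, 0.466 for Ppargc1a and 0.408 for Cycs). Only Spg7 of them was called without the cerebellum-high libraries (-0.39, adjusted p = 0.00372, edgeR).

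**Figure D4:**
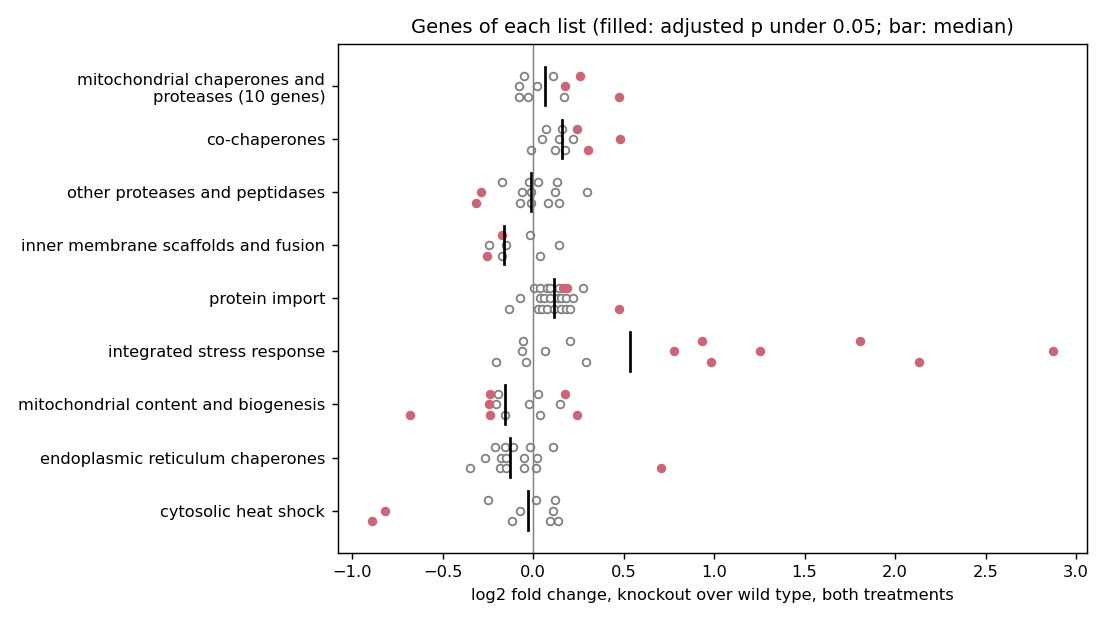
Log2 fold change of knockout over wild type over both treatments (horizontal axis) for each gene of the 10-gene set and of the lists around it; filled points have an edgeR adjusted p under 0.05 and the vertical bar is the list's median. The 7 filled points of the integrated stress response lie between 0.78 and 2.87, to the right of Hspa9 at 0.47.

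The integrated stress response was higher by larger steps. Of 14 genes 7 rose and none fell (median 0.53). Atf4 averaged 60.5 CPM ± 12.1 (SD, n = 10) in WT-Veh and 106 CPM ± 19.8 (SD, n = 10) in KO-Veh, a pooled rise of 0.78 (adjusted p = 1.47e-08). Atf5 went from 21.4 CPM ± 4.29 to 44.1 CPM ± 9.74 (SD, n = 10 each), a pooled rise of 0.98 (adjusted p = 1.22e-09). Ddit3, the transcription factor CHOP, rose by 1.81 (adjusted p = 1.8e-13), the glutathione-degrading Chac1 by 2.87 (adjusted p = 5.02e-12) and asparagine synthetase, Asns, by 1.25 (adjusted p = 1.42e-09), all in edgeR. Folding genes of other compartments are read against the 11.9% of all genes that were called: of 16 endoplasmic reticulum chaperone genes 1 rose, Herpud1 by 0.71 (adjusted p = 2e-05; list median -0.13), and of 10 cytosolic heat shock genes none rose and 2 fell (list median -0.03), the inducible Hsp70 genes Hspa1a (-0.89, adjusted p = 0.0139) and Hspa1b (-0.82, adjusted p = 0.00667), a near-identical pair whose counts may be split by the counting (edgeR). Without the cerebellum-high libraries neither was called (-0.68 and -0.36, adjusted p = 0.149 and 0.278, edgeR), nor was either in limma. Atf4, Atf5, Ddit3, Chac1, Asns and Herpud1 were called in both of those alternatives.

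Promoter letters were set beside these changes. The composite CCAAT/enhancer-ATF response element, TGATGNAA, to which Atf4 and CHOP dimers bind, was searched on both strands and found in 3.97% of the 32851 windows. It was found in the windows of Chac1, Trib3 and Asns, 3 of the 13 stress response genes with a window, and in none of the 8 genes of the set that have one. The sites below, with the element or its reverse complement in capitals, show what was matched.
Asns, chr6:7693214-7693243, minus strand: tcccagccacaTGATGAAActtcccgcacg
Chac1, chr2:119351038-119351067, plus strand: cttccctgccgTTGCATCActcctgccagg
Trib3, chr2:152344028-152344057, minus strand: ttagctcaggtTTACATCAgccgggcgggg
In the set, Oma1 held an NRF1 site as Hspd1 did, and only Hspd1 and Hspe1 held a heat shock element.
Oma1, chr4:103313813-103313842, plus strand, NRF1 site: ggaaaggtgtGCGCCTGCGCggagccggct
The endoplasmic reticulum stress element, searched as CCAAT and CCACG with 9 bases between them, occurred in 0.119% of windows and in none of the set. Hspa9 and Dele1 were not among the windows used, and no match says only that these letters were not in this window.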

How the data were processed

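Estimated counts per gene (whole numbers, rounded from fractional values) and a CPM table were deposited by the authors; per the submitters' processing notes reads were handled with HISAT2 2.2.1, featureCounts 2.0.6, SAMtools 1.6, Trim Galore 0.6.10, FastQC 0.12.1 and deepTools, and the builds named are mm10 and mm39, with no role stated for either. Per the labels' protocols, oligo-dT primers carried sample barcodes and molecular identifiers; whether these were used in counting, and whether strand was used, is not stated there, so genes that overlap on opposite strands (Hspd1 with Hspe1, Trap1 with Dnase1, Clpx with a processed pseudogene, Dele1 with a non-coding gene) may share reads. Fractional values were seen in 2 of 36 libraries for Clpx and in 1 for Dele1. Hspa9, with 22, overlaps only small nucleolar RNA genes on its own strand, and the source of its shared reads was not tested. No replicate pair was identical.

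The counts were tested with edgeR 4.0.16 (TMM, filterByExpr, robust quasi-likelihood fit of 4 groups over 36 libraries, Benjamini-Hochberg adjustment), in R 4.3.3, after the fit was tested on simulated data. The authors' deposited CPM values were used in limma 3.58.1 on log2(CPM + 1) as an alternative, with DESeq2 1.42.0 as another. Genes named besides the 10 were up to 4 called members of each list by adjusted p, Gpt2, Atf4, Atf5, Ddit3 and Eif2ak1, and for each member the 2 genes of highest r (for Hspe1, 1 of them is not reported here). Correlations used 10000 permutations. Members and lists were chosen with earlier results of these data known. Promoter windows come from RefSeq (GRCm38.p6), which matched 8 of the 10 genes.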

Additional observations from a re-analysis of the deposited data

Results flagged for a closer look

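In 40 tests of the 10 genes in 4 groups, 6 had 1 library farther from the rest than Dixon's 95% limit allows; chance gives about 1 in 20. Hspa9 stood out in WT-Veh 1 (175 CPM, next 121), in WT-dm-αKG 8 (114 CPM, next 93.4) and in KO-dm-αKG 8 (192 CPM, next 147). Clpx stood out in WT-Veh 1 (38.8 CPM, next 23.9) and in KO-dm-αKG 8 (25.2 CPM, next 17.4), and Yme1l1 in WT-Veh 1 (71.5 CPM, next 51.7). The 6 flagged values are the highest of their groups and come from 3 libraries. WT-Veh 1 and WT-dm-αKG 8 are cerebellum-high libraries and KO-dm-αKG 8 is not. Hspa9 was lowest of its group in 2 other cerebellum-high libraries, WT-Veh 6 (88.7 CPM) and WT-dm-αKG 6 (80.9 CPM). The oligodendrocyte score was highest of its group in WT-dm-αKG 8 (9.73) and KO-dm-αKG 8 (9.67), but not in WT-Veh 1 (8.52). The cause was not tested.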

How the results depend on the processing

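The number of the 10 genes called changed as follows. With vehicle (1) it was 0 in limma on the deposited CPM values, 0 without the low-count filter and 0 with only the groups compared; with dm-αKG (1) it was 2 without the cerebellum-high libraries; over both (3) it was 1 without the filter, 2 with region scores as covariates and 2 with the replicate block. For treatment, DESeq2 gave 1 in wild types and 1 in knockouts (0 in edgeR), and region scores as covariates gave 1 in wild types; over both genotypes (1) it was 0 without the filter, 0 with the replicate block and 0 without the cerebellum-high libraries. Leaving out 1 library gave 0 to 1 with vehicle, 1 to 1 with dm-αKG, 2 to 3 over both treatments, 0 to 1 for treatment over both genotypes and 0 to 0 elsewhere.

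Changes that took the other sign, for genotype unless treatment is named, were as follows. None was called except Clpx over both without the cerebellum-high libraries. In limma on the deposited CPM values, Clpx was 0.083 over both, Dele1 0.045 over both and 0.14 with dm-αKG, Oma1 0.013 over both and 0.0093 with dm-αKG, and Trap1 0.0011 over both and 0.089 with dm-αKG; in that fit, which differs in table, transform and tool, the median of all genes with dm-αKG was higher by 0.16. With region scores as covariates, Clpx was 0.20 over both and 0.12 with vehicle, Dele1 0.080 over both, 0.078 with dm-αKG and 0.082 with vehicle, and Hspd1 -0.039 over both, -0.015 with dm-αKG and -0.039 for treatment over both genotypes. Without the cerebellum-high libraries, Clpx was 0.29 over both and 0.069 with vehicle, Dele1 0.14 over both, 0.19 with dm-αKG and 0.082 with vehicle, Trap1 0.027 with dm-αKG, and the Clpp to Clpx ratio difference with dm-αKG -0.38. On leaving out 1 library, values ranged from -0.080 to 0.059 for Clpx over both, from -0.075 to 0.036 for Dele1 with dm-αKG, from -0.10 to 0.024 for Dele1 with vehicle, from -0.026 to 0.050 for Hspd1 over both and from -0.035 to 0.071 for Oma1 with vehicle. The cause was not tested.

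Counts over all genes with vehicle (422 higher, 279 lower) were 907 and 1022 with region scores, 189 and 21 in limma, 243 and 105 without the filter and 216 and 108 with only the groups compared; leaving out 1 library gave 440 to 1662 in all, the last without KO-Veh 7. With dm-αKG (182 and 122) they were 273 and 237 in DESeq2, 213 and 7 in limma, 96 and 49 without the filter and 217 and 382 without the cerebellum-high libraries, and 133 to 325 in all on leaving out 1 library. Over both (927 and 1003) they were 865 and 104 in limma and 628 and 558 without the filter, and 1455 to 2947 in all on leaving out 1 library. For treatment in wild types (0 genes) 193 were called with region scores and 90 in DESeq2, and in knockouts (0) 20 in DESeq2. For treatment over both genotypes (50 genes) they were 345 in DESeq2, 136 with region scores, 0 without the filter, 0 with the block, 0 without the cerebellum-high libraries, and 7 to 228 on leaving out 1 library. The labels do not say that replicate numbers pair the libraries, and same-number r ran from -0.65 to 0.81 (median 0.11, against -0.016 for other numbers; 8 of 36 best matched their own number), so no pairing was used. With the replicate block the Hspa9 genotype changes were 0.37 with vehicle, 0.58 with dm-αKG and 0.48 over both, all called.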
